A study of Rattus norvegicus with 16 samples.

Results

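The basement membrane is the thin sheet of matrix that wraps each smooth muscle cell of the artery wall. The 10 genes described here encode its main parts: the collagen IV chains Col4a1 and Col4a2, the laminin chains Lama4, Lama5, Lamb1, Lamb2 and Lamc1, the nidogens Nid1 and Nid2, and the heparan sulfate proteoglycan Hspg2 (perlecan). They were 10 of the 32883 genes in the expression table. The genes were chosen from these same libraries, with the contrast between control and Nat10 knockdown cells in view, so their levels and changes are given as a description and carry no test. Of the 10, 9 were listed under their own symbols. Hspg2 was listed as AABR07073181.1 and was matched through its Ensembl ID in the RefSeq gene table of assembly GRCr8.

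NAT10 transfers an acetyl group to cytidines of RNA, which makes N4-acetylcytidine (ac4C), and the series asked what it does in the proliferation and migration of vascular smooth muscle cells. Primary wild-type rat aortic smooth muscle cells were grown in medium with 20% fetal bovine serum and received an adenovirus for 48 h. The virus carried a control hairpin (Adcon, 3 libraries) or a short hairpin RNA against Nat10 (Adsh, 3 libraries), so every input and ac4C library came from virus-treated cells. Input RNA was sequenced from both groups, RNA fragments of 100 to 200 nt were immunoprecipitated with an antibody against ac4C (3 control and 3 knockdown libraries), and an antibody against the NAT10 protein was used to pull down its bound RNA from primary aortic smooth muscle cells in 3 further libraries (NAT10 RIP). The sources call the libraries biological repeats without saying that they came from separate animals or cultures, so the spread between them may be partly technical.

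A basement membrane is built of a laminin sheet and a collagen sheet. Laminins are cross-shaped trimers of an alpha, a beta and a gamma chain, which assemble at the cell surface on integrins and dystroglycan. Collagen IV forms a covalently crosslinked net, in which the commonest trimer holds a pair of Col4a1 chains and a single Col4a2 chain. Nidogens and perlecan tie the sheets together. In vessels, Lama4 and Lama5 are the alpha chains of the laminins of the endothelial and smooth muscle basement membranes, and mutations of COL4A1 and COL4A2 are known for a disease of small vessels.

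Col4a1 and Col4a2 lie head to head, and the sequence between them is shown because both genes stood lower in the knockdown cells. In RefSeq assembly GRCr8, Col4a1 starts at base 84885597 of chromosome 16 on the plus strand and Col4a2 at base 84885520 on the minus strand, with 76 bases between the starts. Each printed window covers 250 bases before and 50 bases after a start, and the windows of the pair share 176 bases (chr16:84885471-84885646). The Lama4 window is printed for contrast, since it alone of the windows found held a TATAAA. Capitals mark 3 motifs on either strand: the CCAAT box (printed ATTGG where it lies on the opposite strand), the GC box GGGCGG (printed CCGCCC there) and the box TATAAA. Windows are printed 5′ to 3′ on the strand of the gene.
Col4a1 (GRCr8 chr16:84885347-84885646, plus strand): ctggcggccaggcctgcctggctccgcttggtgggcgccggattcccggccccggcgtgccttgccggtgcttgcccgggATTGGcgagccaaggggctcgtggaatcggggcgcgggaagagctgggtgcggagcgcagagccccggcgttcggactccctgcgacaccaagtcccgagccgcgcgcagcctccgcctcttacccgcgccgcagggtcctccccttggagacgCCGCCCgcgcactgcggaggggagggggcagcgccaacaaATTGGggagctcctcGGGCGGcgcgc
Col4a2 (GRCr8 chr16:84885471-84885770, minus strand): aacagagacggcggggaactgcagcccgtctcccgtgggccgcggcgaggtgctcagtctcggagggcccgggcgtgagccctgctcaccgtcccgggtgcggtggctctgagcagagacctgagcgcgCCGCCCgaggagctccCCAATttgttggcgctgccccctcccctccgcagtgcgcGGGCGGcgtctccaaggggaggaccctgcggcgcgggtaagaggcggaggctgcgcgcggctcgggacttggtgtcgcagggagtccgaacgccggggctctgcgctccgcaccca
Lama4 (GRCr8 chr20:43946648-43946947, plus strand): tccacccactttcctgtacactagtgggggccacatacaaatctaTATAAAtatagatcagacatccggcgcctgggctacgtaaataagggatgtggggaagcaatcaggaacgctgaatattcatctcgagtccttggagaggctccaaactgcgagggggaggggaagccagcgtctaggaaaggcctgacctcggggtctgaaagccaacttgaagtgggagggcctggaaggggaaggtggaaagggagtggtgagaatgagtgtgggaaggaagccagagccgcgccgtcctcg

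Windows were found for 8 of the 10 genes, with none for Lamb2 and Nid2. The Col4a1 window held 2 CCAAT and 2 GGGCGG, with a GC content of 75%, and the Col4a2 window held 1 CCAAT and 2 GGGCGG at 73.7% GC. All of these motifs of the Col4a2 window lie in the bases that the windows of the pair share, so the same sites are counted in both. The other CCAAT of the Col4a1 window lies outside those bases. The Lama4 window held 1 TATAAA and no other searched motif, at 55% GC. GGGCGG occurred 4 times in the Lama5 window, 5 times in Lamc1 and 6 times in Hspg2, and 2 times each in Lamb1 and Nid1. The Nid1 window also held 1 CCAAT. A CArG box, the motif of serum response factor known from smooth muscle genes, was in none of the 8. Over all 33469 RefSeq windows, 37.5% held CCAAT, 33.1% GGGCGG, 14.2% TATAAA and 1.64% a CArG box, at a median GC content of 51.7%. These are matches of letters and not binding sites.

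The deposited unit, FPKM, divides the fragments of a gene by its length and by a factor for the library, so levels can be compared between genes. Whole fragments could be recovered behind all FPKM values, and the libraries held 8171176 to 12065991 fragments in the controls and 6417941 to 7468528 in the knockdown cells. Nat10 stood at 7.69 to 9.95 FPKM in the controls and 3.68 to 4.58 FPKM in the knockdown libraries. In limma on log2(FPKM + 1), 0% of the 13450 tested genes were higher and 0% lower at an adjusted p under 0.05, with a lowest adjusted p of 0.155, while an unadjusted p under 0.05 was reached by 744 genes that were higher and 935 that were lower. A voom fit to the recovered fragments also called 0 genes. No pair of libraries was closer than control libraries 2 and 3, with a median chi-square of 0.748 per gene against 0.455 from sampling alone and 3.89 to 13.7 for the other pairs. Control library 1 and knockdown library 2 deviated from their group means in a shared direction (r = 0.41 over the tested genes). Where leaving out both turned a log2 change or a correlation of the 10 genes, or moved it by over 1.5 times, the value without them is given beside it.

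In every library the summed FPKM of the smooth muscle markers lay above that of each other marker list. The smooth muscle markers also stood lower in the knockdown libraries, with none past the threshold. The summed FPKM of 8 smooth muscle markers ran from 4164 to 5694 in the controls and from 682 to 3282 in the knockdown libraries, and 5 of the 7 tested markers stood lower without overlap, against 10.9% of all tested genes. Acta2, smooth muscle actin, stood at 2176, 1479 and 1486 FPKM in control cells, against 356, 138 and 957 FPKM after knockdown. Of the 9 endothelial markers measured, Egfl7 was the most abundant at 4.54 to 8.17 FPKM and the only one tested. The defining markers Cldn5, Emcn and Sox17 were listed at 0 in every library, Vwf stood at or below 0.139 FPKM, and the list summed to 6.77 to 8.90 and 5.31 to 8.27 FPKM. Fibroblast markers summed to 297 to 319 FPKM in control cells, against 194 to 267 FPKM after knockdown, with 6 of 7 tested markers negative and 4 lower without overlap. In knockdown library 2 the fibroblast marker Lum stood at 131 FPKM, against 448 for Tagln, 138 for Acta2 and 33.1 for Cnn1. Leukocyte markers summed to 3.83 to 5.66 and 5.28 to 12.0 FPKM, with Cd3e at 0, and Schwann and neural markers to 7.96 to 14.4 and 14.3 to 21.8 FPKM. The part of these differences in the results that follow was not tested. In bulk RNA, fewer cells of a type and less RNA per cell cannot be told apart.

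**Figure D1:**
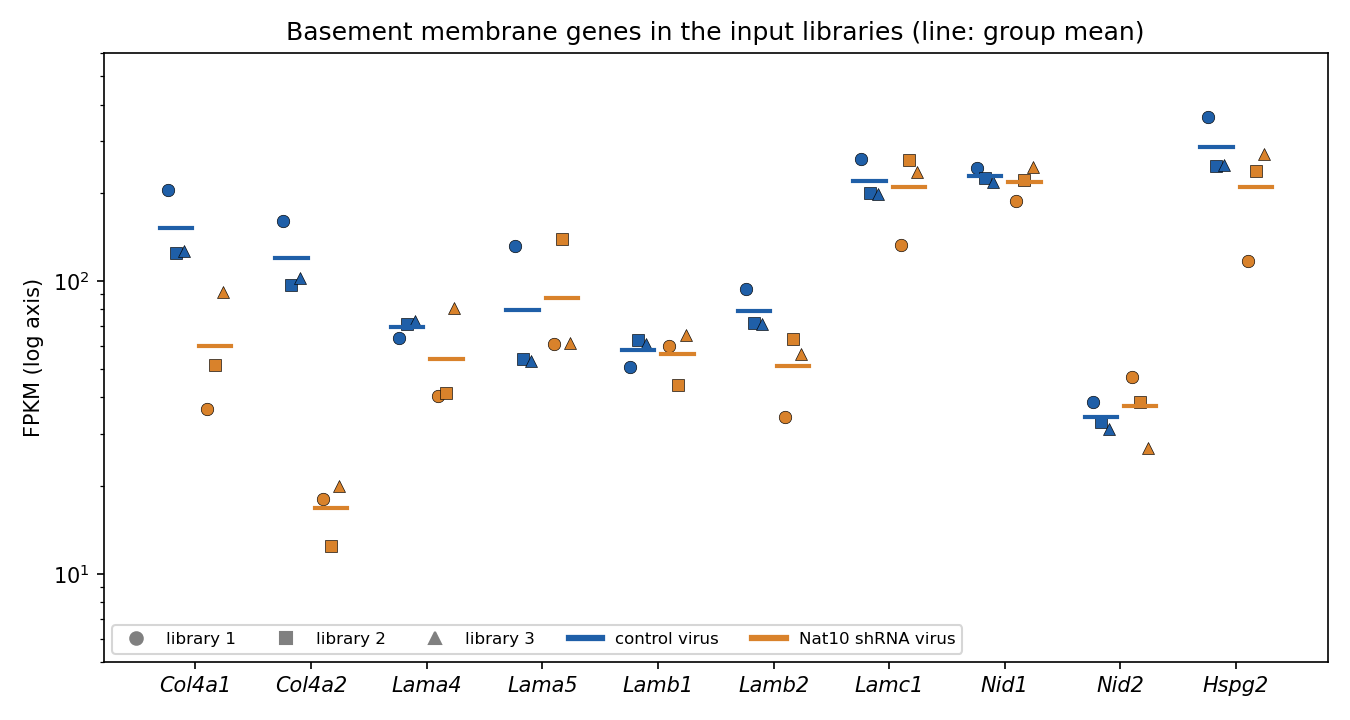
FPKM (log axis) of the 10 basement membrane genes in each input library; circles, squares and triangles are libraries 1, 2 and 3 of a group, which are not pairs, and horizontal lines are group means (n = 3). Col4a1, Col4a2 and Lamb2 have all 3 knockdown points below all 3 control points; the other 7 genes overlap.

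The collagen IV chains differed most. Col4a2 (ENSRNOG00000023972) stood at 159.8, 96.6 and 101.9 FPKM in control libraries 1 to 3, against 18.0, 12.5 and 19.9 FPKM in libraries 1 to 3 of the knockdown. The lowest control thus lay well above the highest knockdown library. The group means were 119 ± 35.0 and 16.8 ± 3.85 FPKM (SD, n = 3 each), 7.12-fold lower in the knockdown cells, with a log2 change of -2.75 (SE 0.26). Between 3729 and 9076 fragments in controls and 503 to 677 fragments in knockdown libraries lay behind these values. Its rank among the tested genes moved from the 95.9th percentile in controls to the 65.9th in knockdown cells.

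Col4a1 (ENSRNOG00000016281), the partner chain, stood at 203.6, 124.1 and 126.2 FPKM in control cells, against 36.5, 51.8 and 91.9 FPKM after knockdown. Here too the groups did not overlap, but knockdown library 3 came near the lower controls. The group means were 151 ± 45.3 and 60.1 ± 28.6 FPKM (SD, n = 3 each), 2.52-fold lower, with a log2 change of -1.38 (SE 0.37). Without control library 1 and knockdown library 2, the log2 change was -1.09 for Col4a1 and -2.33 for Col4a2. Over 16 other ways to fit the data it ran from -1.74 to -1.08 for Col4a1 and from -2.88 to -2.33 for Col4a2.

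The chains of the pair did not keep their proportion. Within a library, the ratio of Col4a1 to Col4a2 FPKM was 1.27, 1.28 and 1.24 in the controls, a mean of 1.27 ± 0.0241 (SD, n = 3). In the knockdown libraries it was 2.03, 4.15 and 4.62, with a mean of 3.60 ± 1.38 (SD, n = 3). All 3 knockdown libraries lay above all 3 controls, and the knockdown libraries differed by 2.28-fold among themselves. A ratio within a library needs no scaling between libraries, although its absolute value depends on the gene models behind the FPKM. It shows unequal levels of the chains' RNAs, and not which chain differed.

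**Figure D2:**
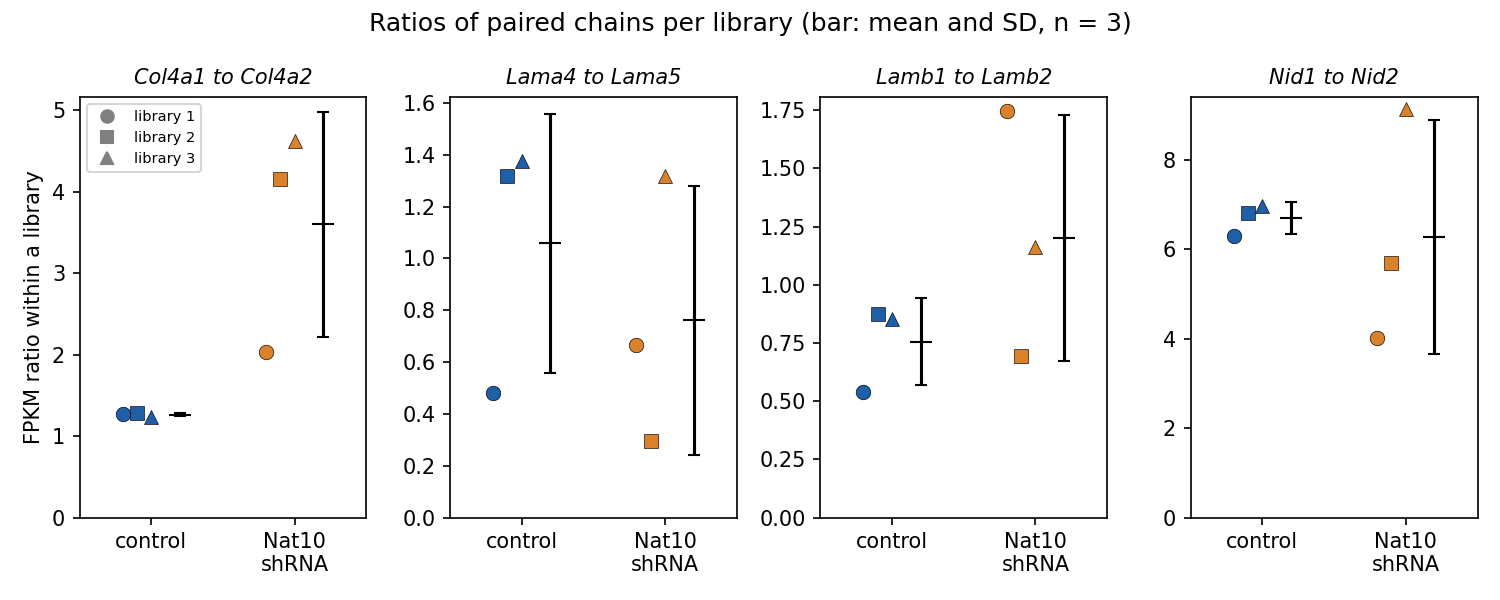
Ratio of FPKM values of paired chains within each input library (linear axes from 0); points are libraries and bars show the mean and SD (n = 3). The ratio of Col4a1 to Col4a2 is 1.24 to 1.28 in controls and 2.03 to 4.62 in knockdown libraries, while the ratios for Lama4 to Lama5, Lamb1 to Lamb2 and Nid1 to Nid2 overlap between the groups.

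The other collagen IV chains were low except for Col4a5. Of 4 such genes, 2 were tested and both stood lower without overlap (10.9% of all tested genes did), with none past the threshold. Col4a5, on the X chromosome and mutated in Alport syndrome, stood at 40.2, 28.3 and 28.8 FPKM in control cells, against 6.52, 7.65 and 22.0 FPKM after knockdown, a log2 change of -1.53 (SE 0.42; limma adjusted p = 0.292). Col4a6 stood at 5.83 ± 2.38 and 1.72 ± 0.683 FPKM (SD, n = 3 each; limma adjusted p = 0.278), and Col4a4 below 1 FPKM in every library. The median log2 change of the 2 tested chains was -1.42.

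Among the laminin chains, Lamb2 alone had groups that did not overlap, as did 10.9% of all tested genes in the lower direction. Lamb2 (ENSRNOG00000047768), the beta chain of laminins of mature vessel walls and synapses, stood at 93.8, 71.8 and 71.2 FPKM in control cells, against 34.2, 63.5 and 56.2 FPKM after knockdown. Knockdown library 1 was by far the lowest, and the other knockdown libraries lay just under the controls. The group means were 78.9 ± 12.9 and 51.3 ± 15.3 FPKM (SD, n = 3 each), 1.54-fold lower, with a log2 change of -0.65 (SE 0.26) that ran from -0.82 to -0.38 over the 16 alternatives, the last of these without knockdown library 1.

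Lamb1 (ENSRNOG00000005678), the beta chain found in most other laminins, stood at 50.8, 62.9 and 60.7 FPKM in control cells, against 59.8, 44.0 and 65.3 FPKM after knockdown. The groups overlapped, at a log2 change of -0.06 (SE 0.20) whose sign turned under 5 of the 16 alternatives, such as leaving out knockdown library 2 (0.11) or both it and control library 1 (0.016). Within a library the ratio of Lamb1 to Lamb2 was 0.541, 0.876 and 0.853 in controls and 1.75, 0.694 and 1.16 in knockdown cells, and the groups overlapped. Added together, the 2 beta chains gave 145, 135 and 132 FPKM in control cells, against 93.9, 107.5 and 121.5 FPKM after knockdown, so that the sums did not overlap.

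The alpha chains overlapped between the groups and varied with the library. Lama4 (ENSRNOG00000000599), the short alpha chain of mesenchymal and vascular laminins, stood at 63.7, 71.5 and 73.0 FPKM in control cells, against 40.6, 41.3 and 80.7 FPKM after knockdown. Knockdown libraries 1 and 2 lay below every control and knockdown library 3 above every control. The log2 change was -0.42 (SE 0.28). It was -0.26 without knockdown library 1, -0.27 without knockdown library 2 and -0.74 without knockdown library 3.

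Lama5 (ENSRNOG00000053691), the alpha chain of the widest tissue spread, stood at 132, 54.2 and 53.1 FPKM in control cells, against 60.9, 139 and 61.2 FPKM after knockdown. Control library 1 and knockdown library 2 both stood far above all 4 other libraries. The group means were 79.8 ± 45.2 and 87.1 ± 45.1 FPKM (SD, n = 3 each), and the log2 change was 0.15 (SE 0.46). Without these libraries it was 0.18, and it turned negative under 4 of the 16 alternatives, among them leaving out knockdown library 2 (-0.24), control library 2 (-0.06) or control library 3 (-0.07). Without control library 1 it was 0.58. The ratio of Lama4 to Lama5 was 0.483 in control library 1 and 0.297 in knockdown library 2, against 0.666 to 1.38 in the other libraries.

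Lamc1 (ENSRNOG00000002680), the gamma chain of nearly all vascular laminins, was the most abundant laminin chain in both groups. It stood at 261, 199 and 198 FPKM in control cells, against 133, 258 and 236 FPKM after knockdown, low in knockdown library 1 and within the controls' range in the other knockdown libraries. The log2 change was -0.12 (SE 0.29), with the opposite sign under 3 of the 16 alternatives, among them leaving out knockdown library 1 (0.18) or control library 1 (0.015). Summed, the alpha chains stood at 149 ± 40.3 FPKM, the beta chains at 137 ± 6.70 FPKM and the gamma chain at 219.5 ± 36.3 FPKM in control cells, against 141 ± 39.5, 108 ± 13.8 and 209 ± 66.7 FPKM, in the same order, after knockdown (SD, n = 3 each).

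The remaining laminin genes on the list were low. Of 5 that were listed, 2 were tested, both with a negative change and overlapping groups, at a median log2 change of -0.38. Lama2, the alpha chain of muscle laminin, stood at 8.19 ± 1.52 and 5.84 ± 2.34 FPKM (SD, n = 3 each; limma adjusted p = 0.533). Lamb3, a chain of epithelial laminin, stood at 0.651, 7.42 and 8.65 FPKM in control cells, against 3.96, 0.739 and 7.53 FPKM after knockdown. It was thus lowest in control library 1 and knockdown library 2, the libraries in which Lama5 was highest.

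The nidogens, which link laminin to collagen IV, overlapped between the groups. Nid1 (ENSRNOG00000002461) stood at 243, 224 and 217 FPKM in control cells, against 188, 220 and 245 FPKM after knockdown, the smallest spread within groups relative to the mean (5.97% and 13.1%) of the 10 genes. Its log2 change was -0.07 (SE 0.18). It became 0.08 under quantile normalization and under scaling to fragment totals, 0.028 without knockdown library 1 and -0.039 without control library 1 and knockdown library 2. Nid2 (ENSRNOG00000000341) stood at 38.7, 32.9 and 31.1 FPKM and at 46.9, 38.7 and 26.8 FPKM, a log2 change of 0.10 (SE 0.23) that was -0.08 without knockdown library 1. The ratio of Nid1 to Nid2 was 6.29 to 6.98 in controls and 4.01 to 9.14 in knockdown cells.

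Hspg2 (ENSRNOG00000021437), the proteoglycan that binds growth factors and holds the laminin and collagen sheets together, had the highest mean of the 10 genes in controls. It stood at 363, 247 and 249 FPKM in control cells, against 117, 238 and 272 FPKM after knockdown. Knockdown library 1 was the lowest by a wide margin, and knockdown library 3 lay above 2 controls. The group means were 286 ± 66.3 and 209 ± 81.0 FPKM (SD, n = 3 each), and the log2 change was -0.52 (SE 0.35). It was -0.15 without knockdown library 1 and -0.34 without control library 1. The length behind its FPKM was 7575 nt, and its place in the order of levels depends on that gene model.

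**Figure D3:**
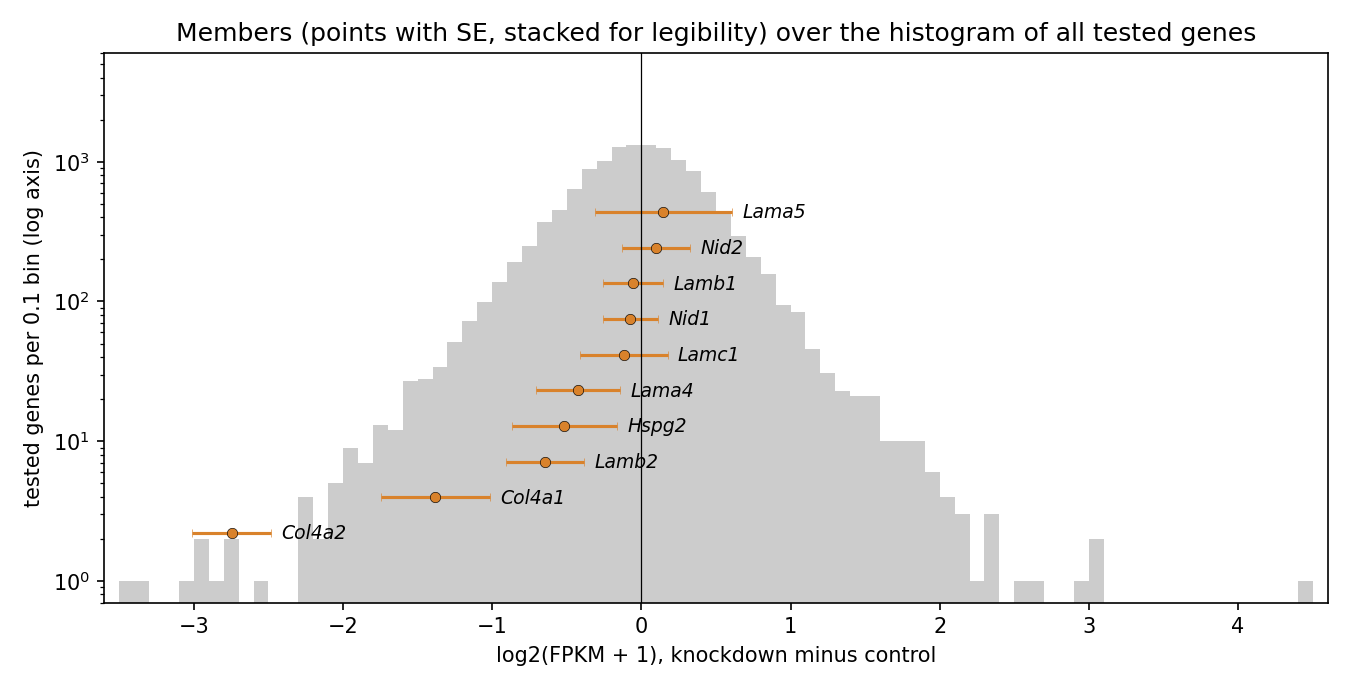
Log2 change of the 10 genes (knockdown minus control on log2(FPKM + 1); points with SE, stacked vertically for legibility) over the histogram of all 13450 tested genes (left axis, log scale). Col4a2 at -2.75 and Col4a1 at -1.38 lie in the lower tail, and the other 8 genes lie between -0.65 and 0.15.

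Over the 10 genes, 8 log2 changes were negative and 2 positive, with a median of -0.27. Without the collagen IV chains, 6 were negative and 2 positive, with a median of -0.09. Over all tested genes 51.4% were negative, at a median of -0.01. Groups did not overlap for 3 of the 10 genes in the lower direction, against 10.9% of all tested genes, and for 0 of the 10 in the higher direction, against 9.63% of all. Since the genes were chosen on this contrast, nothing is read from these counts. The libraries did not contribute alike: relative to the control means, the median deviation of the 10 genes on the log2 scale was 0.26, -0.13 and -0.14 for the controls, numbered 1 to 3, and -0.73, -0.27 and -0.15 for the knockdown libraries, numbered likewise. Without knockdown library 1 the median change of the 10 was -0.13, and without knockdown library 3 it was -0.48. Without control library 1 and knockdown library 2 together it was -0.25. Scaling each library to its fragment total moved the median of all genes from -0.01 to 0.12 and that of the 10 genes to -0.12, with 5 of the 10 negative.

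By mean FPKM the control order was Hspg2, Nid1, Lamc1, Col4a1, Col4a2, Lama5, Lamb2, Lama4, Lamb1 and Nid2. Neighbours whose libraries did not overlap were Hspg2 and Nid1, Lama4 and Lamb1, and Lamb1 and Nid2. In knockdown cells the order was Nid1, Hspg2, Lamc1, Lama5, Col4a1, Lamb1, Lama4, Lamb2, Nid2 and Col4a2. There only Nid2 and Col4a2 were neighbours without overlap. Col4a2 moved from the fifth place to the last, and the top 3 genes were the same in both groups.

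Across the 6 input libraries, Pearson correlations of log2(FPKM + 1) were high within a set around Hspg2. They were 0.94 with Lamb2, 0.94 with Nid1 and 0.90 with Lamc1. Col4a1 correlated at 0.89 with Col4a2 and also at 0.89 with Lamb2, so this value was not particular to the collagen IV pair. Lama4 and Nid2 ran in opposite directions (-0.87). So did Lama5 and Lamb1 (-0.93), but without control library 1 and knockdown library 2 their correlation was 0.23 over the other 4 libraries, so it rests on those libraries. These 6 points share the split into groups and the libraries that stood apart, so all of the values are a description. Outside the 10 genes, Eva1b (0.998), Nek9 (0.998), Cntn2 (0.994), Pmpcb (0.988) and Itpr1 (0.986) had the patterns most like the mean of the 10 standardised genes. Col4a2 was only the 456th gene in likeness to Col4a1, led by Tmem150a, Mvp and Ell2, and Col4a1 the 400th in likeness to Col4a2, led by Dbt, Nexn and Plekha2.

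Genes that act with the basement membrane were taken from lists chosen by function, and none passed the threshold. These lists, like those of the cell markers and other chains, were drawn up with earlier results of the data known. Their counts are thus a description. Their counts stand against 51.4% of all tested genes with a negative change, 10.9% lower without overlap and 9.63% higher without overlap. Of 18 other basement membrane components, 13 were tested, 12 with a negative change and 3 of these without overlap, at a median log2 change of -0.38. Sparc, a collagen-binding matricellular protein, stood at 7017 ± 1187 and 5496 ± 1703 FPKM, and Fbln2, fibulin-2, at 359 ± 120 and 310 ± 160 FPKM (SD, n = 3 each). Smoc1, a calcium-binding protein of basement membranes, stood at 331, 312 and 304 FPKM in control cells, against 117, 97.0 and 247 FPKM after knockdown, without overlap (log2 change -1.16, SE 0.35; limma adjusted p = 0.308).

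Of 11 receptors for laminin and collagen, 6 had a negative and 5 a positive change, with 2 lower and 1 higher without overlap, near the 10.9% and 9.63% of all tested genes, at a median of -0.07. Itgb1, the integrin beta 1 subunit shared by most of these receptors, stood at 535, 694 and 701 FPKM in control cells, against 160, 87.4 and 324 FPKM after knockdown. Every knockdown library lay below every control, at a log2 change of -1.94 (SE 0.45; limma adjusted p = 0.266). Dag1, dystroglycan, stood at 105 ± 2.00 and 109 ± 16.7 FPKM (SD, n = 3 each). Itga1, the alpha subunit of a collagen IV receptor, stood at 83.3 ± 5.37 and 57.3 ± 25.2 FPKM (SD, n = 3 each), with overlap.

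Of 17 listed genes of collagen IV folding, hydroxylation, secretion and crosslinking, 16 were tested, 12 negative and 4 positive, with 4 lower without overlap (10.9% of all tested genes) and a median of -0.22. Serpinh1, the collagen chaperone HSP47, stood at 1533 ± 172 and 1365 ± 328 FPKM, and P4hb, the beta subunit of prolyl 4-hydroxylase, at 567 ± 53.4 and 648 ± 148 FPKM (SD, n = 3 each), both with overlap. P4ha1, the catalytic alpha subunit, stood at 476 ± 34.4 and 329 ± 105 FPKM without overlap (SD, n = 3 each; limma adjusted p = 0.458). Of 12 turnover genes, 10 were tested, 6 negative and 4 positive, with 2 lower without overlap (10.9% of all tested genes) and a median of -0.19. Among these, Mmp2, the gelatinase that cleaves collagen IV, stood at 412 ± 98.0 and 374 ± 106 FPKM (SD, n = 3 each). Its inhibitor Timp2 stood at 268 ± 50.7 and 237 ± 81.9 FPKM (SD, n = 3 each). Timp1 stood at 284 FPKM in control library 1 and 376 FPKM in knockdown library 2, the lowest values of their groups.

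NAT10-bound RNA gave peaks in 6 of the 10 genes. The authors' 3 lists held 2268, 1993 and 1773 peaks, of which 24, 24 and 32 lay in the 10 genes, and the enrichment per peak is the authors' own value. Lama4, Lamc1, Col4a2, Lamb1 and Lamb2 had a peak in all 3 lists, 5 of 10. That compares with 2.68% of all tested genes, with 9.07% of the 2116 genes at or above the lowest member's mean FPKM, and with 42.5% of the 228 genes that were also at or above the shortest member's length. The count of 5 of 10 is therefore close to that of other genes of like level and length, and is not a result about these genes.

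Lama4 and Lamc1 carried most of the peaks. Lama4 had 9, 11 and 10 peaks, which covered 50.9%, 49.2% and 29.8% of the gene's length of 5947 nt, with log2 enrichments of 0.86 to 1.32. Of the 3200 bases of Lama4 under any peak, 1725 (53.9%) were under peaks of all 3 lists. Lamc1 had 9, 8 and 8 peaks over 25.4%, 23.3% and 30.8% of its 5998 nt, with enrichments of 0.86 to 1.11, and 1075 of 2175 bases (49.4%) were shared by all 3 lists. The median log2 enrichment over all peaks of a list was 1.07 to 1.09, and the medians of the peaks of Lama4 and Lamc1, 0.96 to 1.02, lay slightly below it.

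Col4a2 had 3, 2 and 4 short peaks over 5.06%, 3.04% and 7.59% of its length, with enrichments of 0.85 to 1.15. The peak at chr16:83409746-83409845, on the minus strand, had the same start and end in all 3 lists. Its neighbour Col4a1, at a similar control level, had none. Lamb2 had 1, 1 and 2 peaks, with chr8:117276824-117277009 in all 3 lists. Lamb1 had 1, 2 and 1 peaks but no base shared by all 3 lists. Hspg2 had 1 peak in list 1, none in list 2 and 7 in list 3, and Lama5, Nid1 and Nid2 had none. Coordinates are those of the deposited lists, and rn6 was the only rat build in the submitters' processing notes. No annotation of that build was used here, so the peaks are not placed in exons. The cells of these libraries carried no virus label, so this assay says nothing of knockdown.

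**Figure D4:**
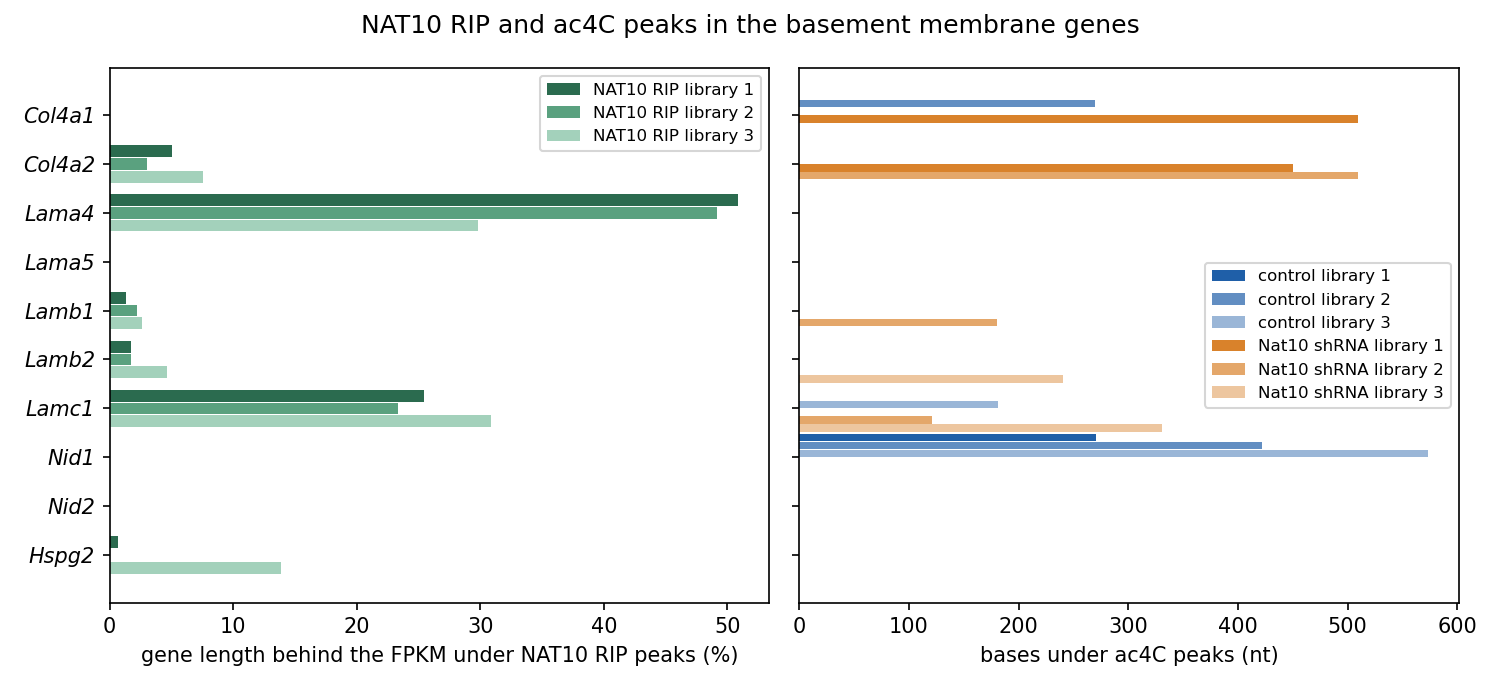
Left, percent of each gene's length (the length recovered from its FPKM) under NAT10 RIP peaks in each of 3 lists; right, number of bases under ac4C peaks in each of 3 control and 3 knockdown lists, where a missing bar means no peak. Lama4 reaches 50.9% and Lamc1 30.8% of length under NAT10 RIP peaks, and Nid1 has ac4C peaks in all 3 control lists and in no knockdown list.

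The ac4C lists held few peaks in these genes. The score of a peak in these lists is the authors' p-value for that peak in that library, used only to describe it. There were 1, 3 and 4 peaks in control lists 1 to 3 and 4, 5 and 2 in knockdown lists 1 to 3. Control lists 1 and 2, with highest p-values of 0.045 and 0.046, held 29998 and 29593 peaks against 2592 to 3479 in the other 4 lists. That is because 26881 and 27673 of their rows carry 1 p-value shared within the list. None of those rows lay in the 10 genes, and they were left out of the counts. A peak in at least 1 control list was found for 3 of 10 genes (34% of tested genes), and in at least 1 knockdown list for 5 of 10 (33%). In either group it was 6 of 10, against 68.8% of the 2116 genes at or above the lowest member's level, so these genes did not stand out in the number with a peak. Lama4, Lama5, Nid2 and Hspg2 had no ac4C peak.

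Nid1 was the only one of the 10 with a peak in all 3 control lists and in no knockdown list, a pattern of 0.491% of tested genes. Its level in controls was at the 98.1st percentile of these, and the share among genes of like level was not computed. The peaks did not fall on the same bases in all 3 lists. Control lists 1 and 2 shared 181 bases at chr17:90553784-90553964, where the authors' deposited scores were 2.5e-22 and 2.5e-15. In list 3 the peaks lay at chr17:90553394-90553574 (score 6.3e-51), chr17:90554983-90555223 and chr17:90598870-90602032. When the peaks had to overlap by at least 50% of the shorter peak in all 3 control lists, the count was 0. Nid1 RNA itself stood at like levels in both groups, and Nid1 had no NAT10 RIP peak.

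Col4a2 had ac4C peaks only in knockdown lists, 2 in list 1 and 3 in list 2, where its RNA stood 7.12-fold below the controls on average. Those at chr16:83387544-83389501 and chr16:83387454-83389411 shared 90 bases and those at chr16:83411380-83414187 and chr16:83411588-83414187 shared 150 bases. None overlapped a NAT10 RIP peak. Col4a1 had 1 peak in control list 2 (chr16:83631854-83632123, score 5e-63) and 2 elsewhere in the gene in knockdown list 1, with no base in common between the groups.

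Lamc1 was the only one of the 10 with ac4C and NAT10 RIP peaks on the same bases. Its ac4C peaks at chr13:70668034-70669711 in control list 3 (score 6e-10), chr13:70668034-70669651 in knockdown list 2 (score 6.9e-10) and chr13:70667751-70670623 in knockdown list 3 (score 1e-109) overlapped each other. They shared 41 to 150 bases with a NAT10 RIP peak in each of the 3 RIP lists. Lamb1 had 1 ac4C peak, in knockdown list 2, and Lamb2 had 1, in knockdown list 3 (chr8:117280277-117280517, score 6.3e-12). The sources used here do not say whether the ac4C p-values are raw or adjusted, and the read depth behind the peaks is unknown, so a missing peak was not detected in that list and is not shown to be absent.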

How the data were processed

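Gene expression was read from the authors' table of FPKM values for the 6 input libraries. Tools in the submitters' processing notes are HISAT2 2.1.0, cutadapt 2.5, HOMER 4.10.4, featureCounts 1.6.3 and DESeq2, and builds are GRCh38, GRCm38 and rn6, the only one for rat; the role of each is not stated. The ac4C lists give 1 p-value per peak, and the NAT10 RIP lists give a log2 enrichment and p-values, per the file headers. Not given in the sources used here: the peak callers, the strand setting of the counting and the control behind the RIP enrichment. The non-immunoprecipitated RIP library was not analysed here.

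FPKM times gene length is a whole multiple of a library's value for 1 fragment. Searching lengths from 20 to 130000 nt gave whole fragments for 100% of the 21401 genes above 0 (21401 genes; relative tolerance 2e-08, absolute tolerance 1e-06) and for 0 of 500 altered genes. The altered genes were drawn from those above 1 FPKM in every library, so they do not check lower genes. Where several lengths fitted, the shortest was kept. The recovered fragments entered an added voom fit, the scaling to fragment totals and the chi-squares between libraries, and the lengths gave the shares under peaks. The 13450 genes averaging at least 1 FPKM were fitted with limma 3.58.1 (R 4.3.3) on log2(FPKM + 1), with the trend option and no covariate, and two-sided p-values were adjusted by Benjamini-Hochberg (threshold 0.05). This scale understates the change of low genes. The fit was tested on simulated data with independent noise and without outlying libraries. That setting does not cover libraries that stood apart, as some did here. Same-numbered libraries deviated with r = -0.21, -0.28 and 0.18, so the numbers were not taken as pairs. Promoter windows came from RefSeq (GRCr8).

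The members and lists were chosen with earlier results of these data known. Named genes were the 10 members, the 3 most abundant genes of a list, the 5 genes most like the members' mean, the genes most like Col4a1 and Col4a2, and Nat10. Of these, the text prints those that a result turns on. Alternatives were another pseudocount, filter, scaling, replicate block, library weights, voom, leaving out libraries, stricter peak thresholds and peak overlap.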

Additional observations from a re-analysis of the deposited data

How the results depend on the processing

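With library quality weights limma called 120 genes higher and 215 lower. Col4a1 (limma adjusted p = 0.0499) and Col4a2 (limma adjusted p = 0.0176) were among the lower, and no other alternative called either. These genes were chosen on this contrast, so the calls are a description and not a test of them. Controls 1, 2 and 3 had weights of 0.559, 3.80 and 3.57, and knockdown libraries 1, 2 and 3 had 1.35, 0.235 and 0.416, so the closely alike controls 2 and 3 weighed most. Leaving out 1 library gave 0 to 1 genes higher (Zfand2a, without knockdown library 2) and 0 to 1 lower (1 gene of the RNA family RF00494, listed at 0 in the control library 3 left out). Both were named after their values were seen. With the replicate block, 0 genes were higher and 0 lower, and the lowest limma adjusted p was 0.442 against 0.155 without it. At an unadjusted p under 0.05 there were 500 and 676 with the block, against 744 and 935 without it. Same-numbered libraries did not correlate best with each other: control 1 deviated most like knockdown 2 (r = 0.41). The median log2 change of the 10 genes ran from -0.48 to -0.12. Of the 10 genes, Col4a1, Col4a2, Lama4, Lamb2 and Hspg2 kept their direction in all 16 alternatives, while Lama5, Lamb1, Lamc1, Nid1 and Nid2 turned in 4, 5, 3, 3 and 1 of them. The replicate block and the filter that kept every gene above 0 leave a gene's log2 change as it is, so these alternatives could not turn it. With scaling to fragment totals, 1124 genes were higher and 569 lower at that unadjusted p. The count of genes with an ac4C peak in all control lists and no knockdown list fell to 0 when peaks had to overlap by at least 50%. The count of genes with a NAT10 RIP peak in all lists was 4 to 6 of 10 over the alternatives, against 5. Voom, averaging control libraries 2 and 3, scaling to fragment totals and leaving out control library 1 with knockdown library 2 were chosen after seeing the data. Precision is limited by 3 libraries a group for expression and by unknown read depth for the peak lists. Since controls 2 and 3 were so alike, the SDs of the controls may understate the spread of 3 independent libraries.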
